A study of Rattus norvegicus with 12 samples.

Results

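The 46 genes described here have symbols that begin with Psma, Psmb, Psmc, Psmd, Psme, Psmf or Psmg, the letters given to subunits of the proteasome and the proteins that assemble and regulate it. They were found among 14217 genes that the probe sets of an Affymetrix rat expression array name by a single symbol, and each gene is represented by the probe set with the highest mean over the 12 arrays. The symbols took in 2 genes that are no proteasome proteins. Psmc3ip encodes a partner of the recombination proteins of meiosis, and Psme3ip1 encodes a protein that binds the activator Psme3, so 44 of the genes belong to the proteasome and its assembly. Psma8, Psmb6, Psmb11 and Psme3 were not among the genes with a single symbol and were not analysed here.

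The proteasome degrades proteins that carry ubiquitin. Its 20S core is a barrel of alpha rings, which gate the entrance, and beta rings, which hold the catalytic sites, and its 19S cap has a base, whose ATPases unfold the substrate, and a lid, which removes the ubiquitin. Interferon induces Psmb8, Psmb9 and Psmb10, which take the places of the catalytic subunits Psmb5, Psmb6 and Psmb7 in the immunoproteasome, and in mouse testis a germ cell form of the core with another alpha subunit and the activator Psme4 is known.

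RAH-6 and RAH-2 are lines of androgenetic haploid embryonic stem (ES) cells, whose genome comes from sperm alone, and together they are called RahES. DA5-3 cells are diploid ES cells of a single line. The last group, round sperm cells, are haploid germ cells that were freshly isolated. All 4 groups came from inbred DA (Dark Agouti) rats, the ES cells grew in N2B27-2i medium, a serum-free medium with kinase inhibitors, and were detached with trypsin, and no transgene, further drug or animal age is named. Each group had 3 arrays labelled as biological replicates, without a statement that they were separate cultures or animals, so p-values measure the spread between these arrays. With 1 diploid line and 2 haploid lines, ploidy, parental origin, line and handling cannot be told apart.

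Values are MAS5 signals on a linear scale, with every array at a 2% trimmed mean of 500, and fold changes are on the log2(signal + 16) scale. A gene was called changed where limma gave an adjusted p below 0.05 over all genes and the absolute log2 fold change was at least 1, and counts by the adjusted p alone are given beside it. Signals below 100 were treated as near background. All 46 genes passed the filter of a signal of at least 100 on at least 3 arrays, and 43 were at 100 or above on every array. The SD between replicates had a median of 0.0790 on the log2 scale over the 46 genes, against 0.162 over all 10538 genes measured on the 12 arrays.

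The labelled cell types were checked with marker lists. The summed signal of 12 round spermatid markers was 317089 to 343784 on round sperm arrays and 1343 to 2844 on ES arrays. That of the 5 ES cell markers on the array was 19182 to 19696 in RAH-6, 22567 to 25874 in RAH-2, 26547 to 28022 in DA5-3 and 6514 to 7505 in round sperm cells, where Sox2, Tfcp2l1 and Lin28a were below 100. Round sperm cells also had 15025 to 18475 for 3 spermatocyte markers, against 710 to 3068 on ES arrays. Blood and macrophage markers summed to 3361 to 3638 over 9 genes in round sperm cells, with Ptprc, Cd14 and Laptm5 below 100. The same markers summed to 448 to 913 on ES arrays. Over 5 Leydig cell markers the sum was 632 to 969 in round sperm cells and 76.8 to 153 on ES arrays. Over 7 Sertoli cell markers it was 950 to 1104.5 in round sperm cells, with Amh, Inhbb, Gata4 and Rhox5 below 100. On ES arrays it was 13430 to 15889, with Amh, Wt1 and Cldn11 below 100 on each. Gata4 was also below 100 on every RAH-6 and RAH-2 array, and Clu on every RAH-2 array. The ratio of 3' to 5' Gapdh signal, a measure of RNA integrity, was 1.11 to 1.16 in RAH-6, 1.23 to 1.30 in RAH-2, 1.35 to 1.69 in DA5-3 and 1.78 to 2.48 in round sperm cells. That of actin was 2.94 to 3.28 in RAH-6, 3.99 to 4.93 in RAH-2, 4.62 to 8.54 in DA5-3, with 8.54 on replicate 1, and 3.62 to 4.72 in round sperm cells, and the part of these ratios in the results was not tested. Replicates of a group correlated at 0.917 to 0.945.

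How the proteasome genes of haploid lines differ from those of the diploid line was read from RahES (n = 6 arrays) against DA5-3 (n = 3 arrays). The inducible genes Psmb9 and Psmb8 were lower in RahES, while 0 of the constitutive core, base and lid genes among the 46 were called. Adrm1, a base subunit gene with another symbol, was called lower and is given with the associated factors. Of the 46 genes, 0 were called higher and 2 lower in limma, where 3.72% of 9323 genes were called higher and 2.86% lower. By the adjusted p alone 8 were higher and 24 lower, against 31.1% higher and 26.0% lower over all genes. The number higher was 5 without RAH-6 replicate 2 or DA5-3 replicate 3, and with no variance trend 5 were higher and 18 lower. The median log2 fold change of the 46 genes was -0.12, that of all genes was 0.03, and 36 of the 46 lay below the median of all genes. Fewer cells of a type and less RNA per cell cannot be told apart in such bulk samples.

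Psmb9, an inducible catalytic subunit, had signals of 222, 250.3 and 200.04 in RAH-6, 143, 173 and 97.7 in RAH-2, 542, 584 and 549 in DA5-3, and 92.0, 57.2 and 125 in round sperm cells. Every DA5-3 array was above every other array. The log2 fold change of RahES against DA5-3 was -1.60 ± 0.14 (limma, adjusted p = 1.3e-06), and it was -1.26 ± 0.16 for RAH-6 and -1.93 ± 0.16 for RAH-2. Psmb8, the inducible counterpart of Psmb5, was near background, with 71.9, 88.8 and 64.7 in RAH-6, 40.1, 109.9 and 59.0 in RAH-2, 194, 174 and 171 in DA5-3, and 130, 149 and 90.5 in round sperm cells. The 3 DA5-3 signals were the highest of the 12. Its log2 fold change was -1.19 ± 0.23 in RahES (adjusted p = 6.2e-04), and as all RAH-6 arrays were below 100, RAH-6 was at least 1.79-fold lower than DA5-3. The calls of Psmb8 in RahES, RAH-6 and RAH-2 ended with an offset of 64 in place of 16, at -0.85, -0.81 and -0.90.

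Psmb10, the inducible counterpart of Psmb7, read 492, 459.8 and 442 in RAH-6, 476, 441 and 455 in RAH-2, 781, 672 and 668 in DA5-3, and 624, 635 and 673 in round sperm cells. RahES arrays did not overlap with DA5-3, and the log2 fold change was -0.60 ± 0.08 (limma, adjusted p = 2.6e-05), below the size needed for a call. The interferon-inducible activator genes Psme1 and Psme2, whose products form the PA28 ring that caps the core, had the same direction. For Psme2 the arrays read 3215, 3383 and 3477 in RAH-6, 3313, 3381 and 3419 in RAH-2, and 5293, 5007 and 4669.9 in DA5-3 (-0.56 ± 0.05, adjusted p = 7.1e-07). For Psme1 they read 3069, 2982 and 2747 in RAH-6, 2866, 2448 and 2624 in RAH-2, and 3491, 4042 and 4043 in DA5-3 (-0.47 ± 0.06, adjusted p = 4.9e-05). In both genes the highest RahES array was below the lowest DA5-3 array. All 5 of the inducible beta and PA28 genes were thus lower by the adjusted p, with a median of -0.60, whereas the catalytic subunits that are always present, Psmb5 (-0.04 ± 0.04, adjusted p = 0.392) and Psmb7 (-0.04 ± 0.06, adjusted p = 0.637), overlapped between RahES and DA5-3.

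**Figure D1:**
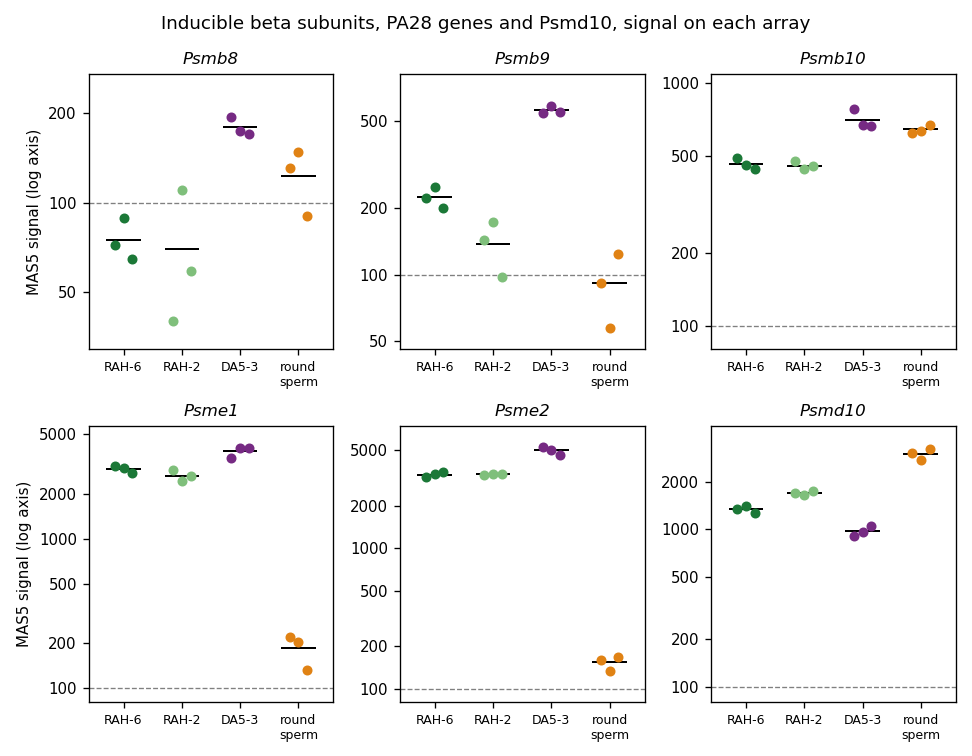
MAS5 signal (log axis) on each of the 12 arrays for Psmb8, Psmb9, Psmb10, Psme1, Psme2 and Psmd10, grouped as RAH-6, RAH-2, DA5-3 and round sperm cells. Points are arrays, black bars are group means (n = 3) and the dashed line is a signal of 100; for the first 5 genes every DA5-3 point is above every RAH-6 and RAH-2 point, and for Psmd10 every DA5-3 point is below them.

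Because these 5 genes had 1 direction, the bases before their annotated starts are shown from RefSeq (build GRCr8), each as 250 bases in 5' to 3' order on the strand of the gene. Capitals mark 3 of the motifs searched on both strands, the CCAAT box (CCAAT, written ATTGG where it lies on the other strand), the STAT core (TTCNNNGAA) and the IRF core of interferon regulatory factors (a pair of GAAA with NN between them).
Psmb9, chr20:4668750-4668999, plus strand: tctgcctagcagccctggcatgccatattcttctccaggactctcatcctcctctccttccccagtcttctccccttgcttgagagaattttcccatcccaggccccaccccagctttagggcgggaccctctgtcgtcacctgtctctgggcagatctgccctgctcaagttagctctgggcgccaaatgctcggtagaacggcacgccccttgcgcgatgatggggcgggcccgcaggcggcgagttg
Psmb8, chr20:4657032-4657281, minus strand: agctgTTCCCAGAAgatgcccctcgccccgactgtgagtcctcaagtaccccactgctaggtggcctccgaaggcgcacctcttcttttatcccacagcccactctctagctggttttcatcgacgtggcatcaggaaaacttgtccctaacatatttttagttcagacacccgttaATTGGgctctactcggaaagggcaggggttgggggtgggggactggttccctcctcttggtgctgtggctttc
Psmb10, chr19:50743293-50743542, minus strand: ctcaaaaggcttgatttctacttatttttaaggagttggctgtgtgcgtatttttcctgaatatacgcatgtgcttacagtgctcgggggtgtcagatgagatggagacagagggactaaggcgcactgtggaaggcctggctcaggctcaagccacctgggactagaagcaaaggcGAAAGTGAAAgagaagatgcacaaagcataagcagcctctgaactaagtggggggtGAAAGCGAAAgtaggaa
Psme2, chr15:33052752-33053001, minus strand: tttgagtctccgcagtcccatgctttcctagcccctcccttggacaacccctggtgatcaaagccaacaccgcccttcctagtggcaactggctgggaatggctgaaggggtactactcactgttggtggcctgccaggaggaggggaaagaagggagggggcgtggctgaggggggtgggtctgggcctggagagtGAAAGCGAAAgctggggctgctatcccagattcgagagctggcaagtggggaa
Psme1, chr15:33038721-33038970, plus strand: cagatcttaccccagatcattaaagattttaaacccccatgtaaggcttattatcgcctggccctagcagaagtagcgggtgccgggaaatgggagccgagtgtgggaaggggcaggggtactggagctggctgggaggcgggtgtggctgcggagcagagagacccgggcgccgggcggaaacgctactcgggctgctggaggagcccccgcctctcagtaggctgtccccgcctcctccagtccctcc
Psmb10 holds a pair of IRF cores and Psme2 a single one, Psmb8 holds a STAT core and a CCAAT box, and no searched motif lies in the bases shown for Psmb9 and Psme1. Psmb8 also has an IRF core, and Psmb9 a CCAAT box, that does not lie wholly before the start. The windows searched ran from 250 bases before to 50 after the start, for 42 of the 46 genes and for 33469 promoters in all. The IRF core was in 7 of the 42 (16.67%) and in 3.92% of all promoters, and the STAT core in 4 (9.524%) and 8.874%. Besides Psmb8, Psmb10 and Psme2, the IRF core was in Psma4, Psmb3, Psmd7 and Psmg4. Besides Psmb8, the STAT core was in Psmc6, Psmd3 and Psmd7. The CCAAT box was in 22 (52.38%) and 37.49%, the ETS core CCGGAAG in 15 (35.71%) and 8.745%, and the antioxidant response element core TGACNNNGC, which the proteasome regulators Nfe2l1 and Nfe2l2 bind, in 7 (16.67%) and 12.06%. These matches describe letters and were not tested. In the RefSeq order of protein-coding genes Psmb9, Tap1, Psmb8 and Tap2 follow each other on chromosome 20 with 0 genes between neighbours. Psme1 and Psme2 lie on chromosome 15 with 1 gene between them.

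Of the constitutive core and cap genes among the 46, 0 were called in RahES against DA5-3, and Psmd3, in the lid, lay farthest from 0. Over all genes 3.72% were called higher and 2.86% lower. Of the 13 constitutive core genes measured, 2 were higher and 7 lower by the adjusted p in RahES against DA5-3. By this rule 31.1% of all genes were higher and 26.0% lower. The median of the 13 core genes was -0.10 and the lowest value -0.23 ± 0.04, that of Psmb3, a structural beta subunit. With median centring 2 of the 13 were higher and 4 lower, and the same counts came with quantile normalization. In the alpha ring 1 of 7 was higher, Psma1 (0.15 ± 0.05), and 4 were lower, namely Psma3, Psma4, Psma6 and Psma7. Psmb2, another structural beta subunit, was the exception in its ring at 0.29 ± 0.04 (limma, adjusted p = 1.3e-04), with RahES arrays at 10253 to 10933 and DA5-3 arrays at 8111 to 9345.

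Of 17 measured 19S subunits among the 46 genes, 0 were higher and 12 lower by the adjusted p in RahES against DA5-3 (median -0.15). Over all genes 31.1% were higher and 26.0% lower by the adjusted p. With median centring 8 of the 17 were lower. Psmd3, a lid subunit, was the farthest at -0.56 ± 0.08 (adjusted p = 5.8e-05), with 1263, 1267 and 1111 in RAH-6, 1343, 1594 and 1544 in RAH-2, and 2258, 1871 and 1859.9 in DA5-3. Its RahES and DA5-3 arrays did not overlap. The lid subunits Psmd7, the partner of the deubiquitinase Psmd14, and Psmd11 differed by -0.39 ± 0.05 and -0.30 ± 0.04. Another Psmd7 probe set differed by -0.05 and another measured Psmd11 set by -0.12. Psmd11 is known from human ES cells, where it is linked to high proteasome activity. Its chosen set read 5577 ± 115 in RahES (SD, n = 6) against 6863 ± 475 in DA5-3 (SD, n = 3). The other set had means of 5723 in RahES and 6232 in DA5-3. The ATPase genes Psmc2, Psmc5, Psmc4, Psmc3 and Psmc1 lay between -0.30 and -0.14, all past the adjusted p, and Psmc6 at 0.10 ± 0.05 (adjusted p = 0.125). Of the base scaffold and receptor genes, Psmd1 (-0.26 ± 0.05) and the ubiquitin receptor gene Psmd4 (-0.14 ± 0.04) passed and Psmd2 (-0.10 ± 0.05, adjusted p = 0.0894) did not. Psmd14 itself was at -0.01 ± 0.04 (adjusted p = 0.760). Of 8 further measured probe sets of these genes and Psme4, 5 had the sign of the chosen set in RahES against DA5-3, and 1 of Psmd14 (0.27) and both of Psme4 (0.21 and 0.16) had the other sign.

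The 7 assembly chaperone genes had a median of 0.16 in RahES against DA5-3, and of 0.20 with median centring and 0.15 with quantile normalization. By the adjusted p, 3 of the 4 core chaperone genes, which guide the building of the alpha ring, were higher in RahES, namely Psmg3 (0.23 ± 0.06), Psmg2 (0.16 ± 0.06) and Psmg1 (0.12 ± 0.04), and Psmg4 was at -0.04 ± 0.05. Of all genes 31.1% were higher and 26.0% lower by the adjusted p in this comparison. With quantile normalization 2 of the 4 core chaperone genes passed. Of the single lines against DA5-3, 3 of the 4 passed in RAH-6 and 0 in RAH-2, where the 4 values were 0.01 to 0.14. Of all genes 30.1% were higher by the adjusted p in RAH-6 and 27.7% in RAH-2. With median centring 2 of the 4 core chaperone genes passed in RAH-2. Among the 3 base chaperones Psmd5 (0.21 ± 0.04) and Psmd10 were higher and Psmd9 was at -0.12 ± 0.06 (adjusted p = 0.0898). Psmd10 encodes gankyrin, a chaperone that binds the ATPase Psmc4 and is also known as an oncoprotein. It read 1344, 1407 and 1259 in RAH-6, 1694, 1639 and 1743 in RAH-2, 905, 958 and 1049 in DA5-3, and 3024, 2754 and 3203 in round sperm cells. Every RAH-2 array was above every RAH-6 array and these above every DA5-3 array, and the log2 fold change was 0.62 ± 0.06 (limma, adjusted p = 2.5e-06), the highest of the 46 genes but below the size of a call. Psmd10 is on the X chromosome, the only one of the 46 genes there.

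Each haploid line was also set alone against DA5-3, and both comparisons share the DA5-3 arrays. In RAH-6 0 of the 46 genes were called higher and 2 lower, against 4.76% and 2.87% of all genes. By the adjusted p alone 6 were higher and 21 lower, against 30.1% and 25.5%, with a median of -0.11. In RAH-2 0 were called higher and 2 lower, against 3.35% and 3.19%, and by the adjusted p alone 5 were higher and 22 lower, against 27.7% and 22.6%, with a median of -0.14. The called genes were Psmb8 and Psmb9 in both lines.

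**Figure D2:**
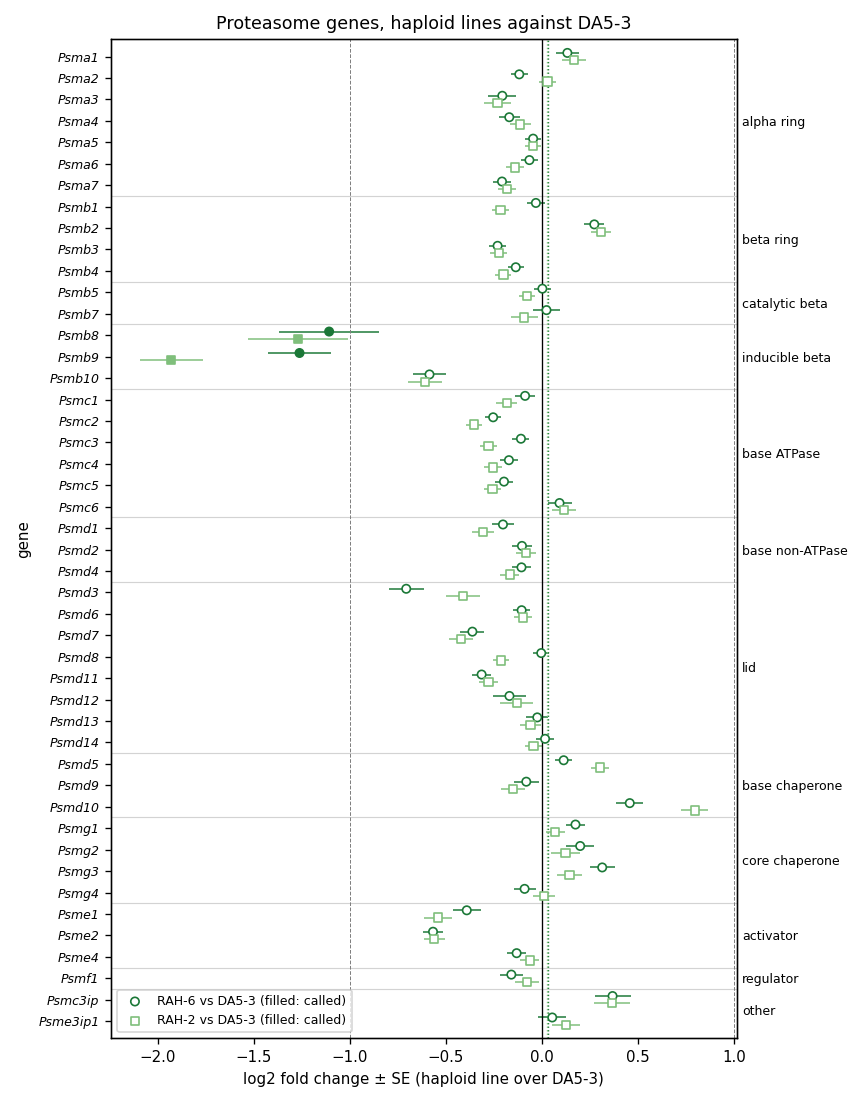
Log2 fold change ± SE of RAH-6 (circles) and RAH-2 (squares) over DA5-3 for the 46 genes, ordered by role, with n = 3 arrays per group. Filled symbols are called genes, the dotted lines are the medians of all genes and the dashed lines mark a log2 fold change of 1 either way; Psmb8 and Psmb9 are the only filled symbols, and the plotted Psmb8 value of RAH-6 rests on signals below 100.

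Between the haploid lines, RAH-6 against RAH-2, 0 of the 46 genes were called higher or lower by limma, where 0.611% and 0.193% of all genes were called. By the adjusted p alone 4 were higher and 4 lower, against 9.69% and 9.06%. Of the 46 genes 2 were higher and 1 lower without RAH-6 replicate 2, 2 were higher without RAH-2 replicate 3, and 2 were lower without RAH-6 replicate 1, RAH-6 replicate 3 or RAH-2 replicate 2. Psmb9 was 0.67 ± 0.16 higher in RAH-6 (adjusted p = 0.0147), and Psmd10 was lower there, at -0.34 ± 0.07 (adjusted p = 0.00604). Also higher in RAH-6 were Psmd8 (0.21), Psmb1 (0.18) and Psmc3 (0.17), and lower were Psmd3 (-0.30), Psmd5 (-0.19) and Psma2 (-0.15). Of the 8 values, that of Psmb9 was the largest in size.

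Other signals moved with these groups. The summed signal of 12 fibroblast markers was 5059 to 5286 in RAH-6, 1214 to 5722 in RAH-2 and 39013 to 42608 in DA5-3, and all 10 measured markers were called lower in RahES. Thy1 and Lum were below 100 on every array, and Fbn1 on every array of RAH-6 and RAH-2. On RAH-2 replicate 2 the sum was 5722, against 1214 and 1402 on the other RAH-2 arrays. This array had the highest Psmb8 and Psmb9 signals of its line, but the lowest Psmb10 (441) and Psme1 (2448) signals. Its Psme2 signal (3381) lay between those of the other RAH-2 arrays. Without RAH-2 replicate 2 the log2 fold change of RahES against DA5-3 was -1.68 for Psmb9 and -1.35 for Psmb8. Psmb9 then differed between RAH-6 and RAH-2 by 0.83. The part of these markers in the results was not tested.

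A list of antigen presentation and interferon genes gave the setting of the inducible subunits. Of 25 listed genes 18 were measured on ES arrays, with a median of -0.17 in RahES against DA5-3. By the adjusted p alone 5 were higher and 8 lower, against 31.1% and 26.0% of all genes. Of the 18, 0 were called higher and 1 lower, against 3.72% and 2.86%. The called gene was Tap2, a peptide transporter subunit, with 92.7, 73.5 and 106 in RAH-6, 14.9, 53.3 and 47.7 in RAH-2, and 199.7, 127 and 160.3 in DA5-3 (-1.25 ± 0.26, adjusted p = 0.00113). All RAH-2 arrays were below 100, and the call ended with an offset of 64 (-0.85). Tap1, its partner, was below 100 on every array. Irf1, a transcription factor of the interferon response, was at -0.70 ± 0.06 and the peptidase gene Erap1 at -0.86 ± 0.07, while B2m, the light chain of class I molecules, was at 0.21 ± 0.04 and the interferon signalling genes Stat2 and Jak1 at 0.70 ± 0.09 and 0.81 ± 0.06. All 5 passed the adjusted p and none was called.

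A list of associated factors outside the 46 genes had 28 of 38 listed genes measured. It includes the cap subunit genes Adrm1 and Sem1, whose symbols do not begin with the letters of the 46 genes. In RahES against DA5-3 0 were called higher and 1 lower, against 3.72% and 2.86% of all genes, with a median of -0.03. By the adjusted p alone 10 were higher and 9 lower, against 31.1% and 26.0%. The gene called lower was Adrm1, the ubiquitin receptor of the base, with 386, 461 and 423 in RAH-6, 346, 423 and 382 in RAH-2, and 867, 777 and 849 in DA5-3 (-1.02 ± 0.09, adjusted p = 7.5e-07). The DA5-3 arrays were above all RahES arrays. The value lay at the edge of a call, which ended without RAH-6 replicate 1, RAH-2 replicate 1 or DA5-3 replicate 1 (-0.98 to -0.99), with an offset of 64 (-0.94) and with median centring (-0.98). Nfe2l1, the factor that raises proteasome gene transcription when degradation is blocked, was at -0.32 ± 0.05, and its relative Nfe2l2 at 0.41 ± 0.05.

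What separates ES cells from haploid germ cells was read from RahES and DA5-3, each against round sperm cells (n = 3), on all 12 arrays and 10538 genes. The proteasome genes did not move as a block: most core genes were far higher in ES cells, cap genes were mixed, and the regulators Psmf1 and Psme4 were far lower. Of the 46 genes, 18 were called higher and 6 lower in RahES, against 43.2% and 28.9% of all genes. In DA5-3 23 were called higher and 7 lower, against 43.2% and 29.5%. By the adjusted p alone 30 were higher and 11 lower in RahES (54.7% and 38.1% of all genes), and 33 higher and 9 lower in DA5-3 (53.7% and 37.5%). The median of the 46 genes was 0.79 in RahES and 0.99 in DA5-3, and that of all genes 0.59 and 0.56. Above the median of all genes were 25 of the 46 in RahES and 26 in DA5-3. Without round sperm replicate 1, 2 or 3, where 9512 to 9520 genes passed the filter, the median of all genes was 0.88 to 0.91 in RahES and 0.86 to 0.89 in DA5-3. That of the 46 genes was then 0.64 to 0.85 in RahES, below that of all genes, and 0.92 to 1.01 in DA5-3.

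The median of all genes depends on the scaling, at 0.27 for RahES and 0.20 for DA5-3 with median centring and at 0.25 and 0.24 with quantile normalization. Both comparisons share the round sperm arrays. In RahES against round sperm cells, 3 of 3 measured Leydig cell markers were called lower, and of 6 Sertoli cell markers 3 lower and 1 higher. The part of the RNA integrity, spermatocyte, blood, Leydig and Sertoli cell values given above in these differences was not tested. Of the genes used as scaling controls, 5 of 10 measured were called higher and 1 lower in RahES, against 43.2% and 28.9% of all genes. Their median was 1.08.

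Psma7, an alpha ring subunit whose testis relative in mouse is Psma8, had the largest difference. It read 9058, 9646 and 9573 in RAH-6, 9365, 9876 and 9537 in RAH-2, 11499, 10919.6 and 10294 in DA5-3, and 188, 164 and 151 in round sperm cells. The lowest ES array was thus far above the highest round sperm array, with log2 fold changes of 5.70 ± 0.06 in RahES (adjusted p = 8.1e-18) and 5.90 ± 0.07 in DA5-3 (adjusted p = 3.6e-17). Psma3, in the same ring, read 1041, 1042 and 1155 in RAH-6, 1007, 1042 and 1134 in RAH-2, 1264, 1176 and 1305 in DA5-3, and 70.7, 51.0 and 60.1 in round sperm cells. As the last group was below 100 on every array, Psma3 was at least 10.7-fold higher in RahES and at least 12.5-fold higher in DA5-3. Of the 7 alpha ring genes 6 were called higher in each comparison, against 43.2% of all genes. Psma1, Psma2, Psma4 and Psma5 lay between 1.45 and 2.66 in RahES. Psma6 went the other way, at 11329 to 12759 in RahES, 12682 to 13615 in DA5-3 and 25945 to 26843 in round sperm cells (-1.12 ± 0.04 in RahES and -1.02 ± 0.04 in DA5-3).

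In the beta ring Psmb2 (3.47 ± 0.06 in RahES and 3.18 ± 0.07 in DA5-3) and Psmb3 (2.66 ± 0.04 and 2.88 ± 0.05) were called higher than in round sperm cells, Psmb4 was called in DA5-3 (1.13) and not in RahES (0.96), and Psmb1 (0.39 and 0.51) in neither. The catalytic subunits differed from each other. Psmb7, which cuts after basic residues, read 2726, 3305 and 3062 in RAH-6, 2861, 2866 and 2640.0 in RAH-2, 2953, 3133 and 2846 in DA5-3, and 624, 531 and 520.2 in round sperm cells, and was called higher in RahES (2.35 ± 0.07) and in DA5-3 (2.39 ± 0.08). Psmb5, which cuts after hydrophobic residues, read 10070.5, 10364 and 10902 in RAH-6, 10114, 9978 and 9530.3 in RAH-2, 10323, 10653 and 10320.1 in DA5-3, and 6919, 7786 and 7189 in round sperm cells. Its ES arrays were all above the round sperm arrays, but the differences of 0.48 ± 0.04 and 0.52 ± 0.05 were below the size of a call. Over the 13 constitutive core genes, 9 were called higher and 1 lower in RahES (median 2.35), and 10 higher and 1 lower in DA5-3 (median 2.39). Over all genes 43.2% were called higher and 28.9% lower in RahES, and 43.2% and 29.5% in DA5-3.

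**Figure D3:**
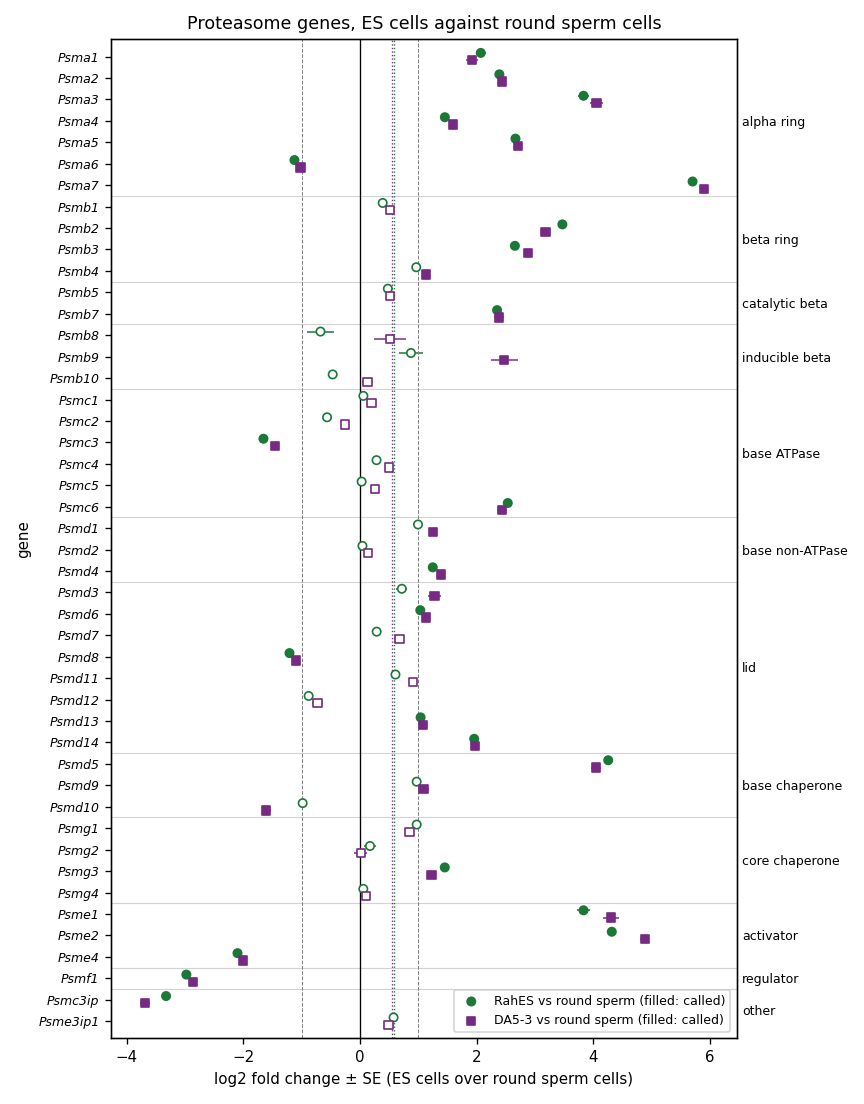
Log2 fold change ± SE of RahES (circles, n = 6 arrays) and DA5-3 (squares, n = 3) over round sperm cells (n = 3) for the 46 genes, ordered by role. Filled symbols are called genes, dotted lines are the medians of all genes (0.59 and 0.56) and dashed lines mark a log2 fold change of 1 either way; Psma7 lies farthest to the right and Psmc3ip farthest to the left.

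Cap genes were divided. Of 17 measured 19S subunits among the 46 genes, 5 were called higher and 2 lower in RahES against round sperm cells (median 0.29). In DA5-3 7 were called higher and 2 lower (median 0.68). Over all genes 43.2% were called higher and 28.9% lower in RahES (median 0.59). In DA5-3 these shares were 43.2% and 29.5% (median 0.56). With median centring 2 of the 17 subunits were called higher and 3 lower in RahES (median -0.03), and 3 higher and 3 lower in DA5-3. Among the ATPases Psmc6 was called higher (2.53 ± 0.08 in RahES and 2.43 ± 0.09 in DA5-3) and Psmc3 lower (-1.66 ± 0.04 and -1.46 ± 0.05). Psmc3 read 5145, 5286 and 5053 in RAH-6, 4779.6, 4519 and 4479.9 in RAH-2, 5636, 5571 and 5511 in DA5-3, and 16001, 15753 and 14425 in round sperm cells. The other 4 ATPase genes were not called, from -0.57 to 0.28 in RahES. In the lid, Psmd14, the deubiquitinase, rose by 1.96 ± 0.05 in RahES and 1.97 ± 0.06 in DA5-3, and Psmd6 and Psmd13 rose by 1.03 ± 0.04 and 1.04 ± 0.06 in RahES. Psmd8 fell by 1.21 ± 0.04 in RahES and 1.10 ± 0.04 in DA5-3, and Psmd12 was at -0.88 ± 0.08 and -0.73 ± 0.09, not called. Psmd13 in RahES and Psma6 in DA5-3 were no longer called when 1 array was left out, at 0.97 without round sperm replicate 3 and at -0.999 without DA5-3 replicate 3.

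Of the chaperones, Psmd5 stood out. It read 3903, 3898 and 4175 in RAH-6, 4537, 4554 and 4569 in RAH-2, 3615, 3766 and 3693 in DA5-3, and 248, 208 and 174 in round sperm cells, which gave 4.26 ± 0.08 in RahES (adjusted p = 1.2e-15) and 4.05 ± 0.09 in DA5-3. Psmd10, by contrast, was highest in round sperm cells, and was called lower in DA5-3 (-1.61 ± 0.08) but not in RahES (-0.98 ± 0.07), where it was called without RAH-6 replicate 2 (-1.002) or round sperm replicate 2 (-1.04). The core chaperone gene Psmg3 rose by 1.45 ± 0.07 in RahES and 1.23 ± 0.08 in DA5-3, and Psmg1, Psmg2 and Psmg4 were not called. Psmd9 was called higher in DA5-3 (1.09 ± 0.09) and not in RahES (0.97 ± 0.08), and its call in DA5-3 ended without round sperm replicate 1, at 0.97. In RahES it was called without round sperm replicate 2 (1.04) or 3 (1.02), as was Psmg1 without round sperm replicate 3 (1.02).

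The activators went in opposite directions. Psme2 read 3215 to 3477 in RahES, 4669.9 to 5293 in DA5-3, and 160.1, 134 and 169 in round sperm cells, and rose by 4.32 ± 0.07 in RahES (adjusted p = 2.5e-16) and 4.88 ± 0.08 in DA5-3. Psme1 read 2448 to 3069 in RahES, 3491 to 4043 in DA5-3, and 218, 202 and 132 in round sperm cells (3.83 ± 0.12 and 4.30 ± 0.14). For both genes all ES arrays were above all round sperm arrays. Psme4, the activator known from mouse for a part in the breakdown of acetylated histones in germ cells, read 2538, 2437 and 2384 in RAH-6, 2655, 2542 and 2524 in RAH-2, 2743, 2672 and 2657 in DA5-3, and 10619.5, 10698 and 11169 in round sperm cells. It fell by 2.10 ± 0.04 in RahES (adjusted p = 1.8e-15) and 2.00 ± 0.05 in DA5-3. Of the other Psme4 probe sets, 1 was lower in ES cells too (-2.34 in RahES and -2.50 in DA5-3) and another was higher (1.08 and 0.86). Over the genes with several probe sets, 7 of 8 further measured sets had the sign of the chosen set in both comparisons with round sperm cells.

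Psmf1, a regulator that binds the core and inhibits it in vitro, read 1694, 1614 and 1657 in RAH-6, 1711, 1653 and 1900.4 in RAH-2, 1843, 1854 and 1857 in DA5-3, and 13513, 13170.0 and 13897 in round sperm cells. It fell by 2.98 ± 0.05 in RahES (limma, adjusted p = 3.6e-16) and 2.86 ± 0.06 in DA5-3. Psmc3ip, the meiotic gene that encodes no proteasome subunit, read 767, 772 and 883 in RAH-6, 728, 816 and 874 in RAH-2, 655, 653 and 561 in DA5-3, and 8067, 8703 and 7890.0 in round sperm cells. It had the lowest value of the 46 genes in both comparisons (-3.33 ± 0.08 in RahES and -3.69 ± 0.09 in DA5-3), and in RahES against DA5-3 it was at 0.36 ± 0.08 (adjusted p = 0.00196). Without Psmc3ip and Psme3ip1, the median against round sperm cells was 0.92 in RahES and 1.08 in DA5-3.

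**Figure D4:**
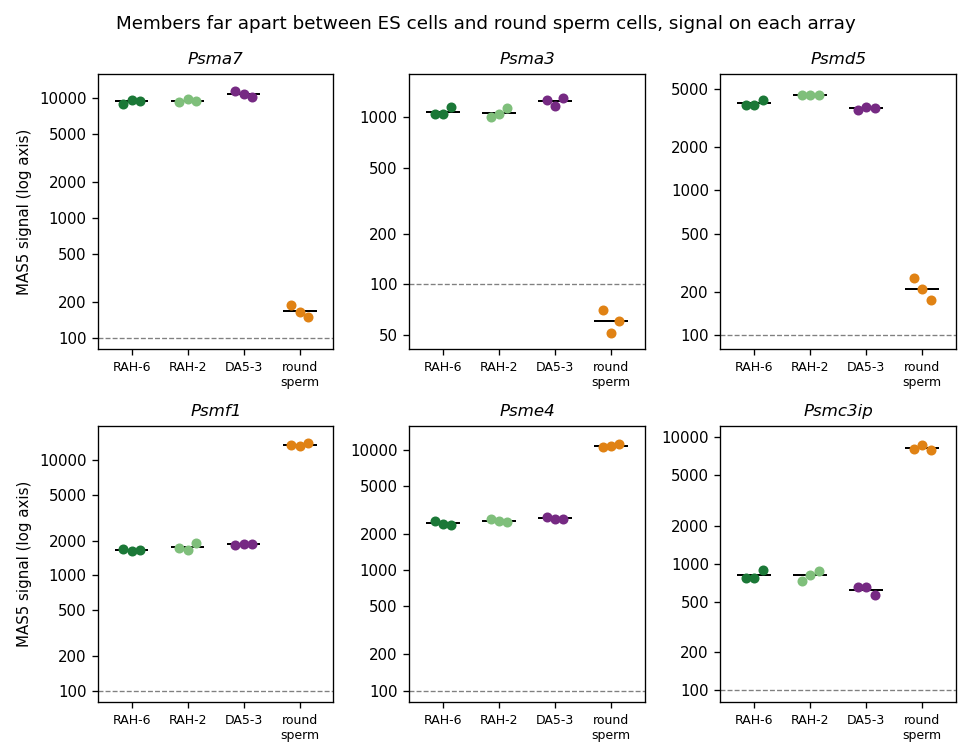
MAS5 signal (log axis) on each of the 12 arrays for 6 genes far apart between ES cells and round sperm cells, grouped as RAH-6, RAH-2, DA5-3 and round sperm cells. Points are arrays, black bars are group means (n = 3) and the dashed line is a signal of 100; Psma7, Psma3 and Psmd5 are lowest in round sperm cells, and Psmf1, Psme4 and Psmc3ip are highest there.

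Of the inducible beta genes, 0 of 3 were called in RahES against round sperm cells and 1 in DA5-3. Against round sperm cells Psmb9 was called higher in DA5-3 (2.47 ± 0.23, adjusted p = 1.2e-07) and not in RahES (0.87 ± 0.20), where 1 array of RAH-2 overlapped with round sperm cells and the gene was called without round sperm replicate 3 (1.09). Psmb8 was at -0.68 ± 0.23 in RahES and 0.51 ± 0.27 in DA5-3 (adjusted p = 0.0867), and Psmb10 at -0.47 ± 0.08 and 0.13 ± 0.09 (adjusted p = 0.198), none of them called. Against round sperm cells 43.2% of all genes were called higher and 28.9% lower in RahES, and 43.2% and 29.5% in DA5-3. Of the 18 measured antigen presentation and interferon genes, 11 were called higher and 0 lower in RahES. By the adjusted p alone 2 were lower in RahES, Pdia3 and Ifi27, and Ifi27 was called at -1.005 without round sperm replicate 1. In DA5-3 12 of the 18 were called higher and 1 lower (Ifi27, -1.29 ± 0.10). The 4 with the smallest adjusted p in each comparison included Gbp2, an interferon-induced GTPase gene below 100 on every round sperm array and at least 15.6-fold higher in RahES and 23.5-fold in DA5-3, and B2m, which rose by 2.37 ± 0.05 in RahES and 2.16 ± 0.05 in DA5-3.

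Of 28 measured associated factors, 12 were called higher and 6 lower in RahES against round sperm cells (median 0.66), against 43.2% and 28.9% of all genes. In DA5-3 13 were called higher and 5 lower (median 0.74), against 43.2% and 29.5%. Zfand5, which in mouse muscle activates the proteasome, read 9826 to 11588 in RahES, 9848 to 10144 in DA5-3 and 113 to 145 in round sperm cells (6.27 ± 0.06 and 6.15 ± 0.07). The ubiquitin shuttle gene Ubqln2 rose by 4.97 ± 0.08 in RahES and 5.50 ± 0.09 in DA5-3, and the ubiquitin-activating enzyme gene Uba6 by 4.16 ± 0.07 and 4.23 ± 0.08. Uchl5, a deubiquitinase of the cap, fell by 1.56 ± 0.04 in RahES and 1.55 ± 0.04 in DA5-3, and Ngly1, which removes sugars from proteins before degradation, fell by 3.92 ± 0.09 and 4.31 ± 0.11.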

How the data were processed

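The authors deposited log2 MAS5 signals for 12 Affymetrix rat arrays (3 per group), per the submitters' processing notes and the file header, the MAS5 version being not given in the sources used here. Since these are arrays, the number of arrays limits the precision. Of 31099 probe sets 20826 named 1 gene, 436 several and 9780 none, 57 were controls, and 20758 of the named sets matched RefSeq (GRCr8). Here the log2 values were turned into linear signals, each array was brought to a 2% trimmed mean of 500, and an offset of 16 preceded log2. Probe sets were kept with a signal of at least 100 on at least 3 arrays of a fit, and the set with the highest mean stood for its gene. Tests used limma 3.58.1 in R 4.3.3 with a variance trend and Benjamini-Hochberg adjustment over 9323 genes (the 9 ES cell arrays) or 10538 genes (all 12 arrays, where round sperm cells were compared), and were checked on simulated data. RahES is the mean of RAH-6 and RAH-2 with equal weight. A gene below 100 on every array of a group has only a bound of its fold. Named were all genes called among ES lines, the catalytic, inducible and activator genes, Psma7, Psmc3ip, the 4 highest and 4 lowest called genes against round sperm cells, and up to 4 called genes of each further list. Ranges and values of other genes, and Irf1, Erap1, Stat2, Jak1, Nfe2l1, Nfe2l2, Pdia3 and Ifi27, were picked after their values were seen. The 46 genes, the lists and the rules were chosen with earlier results of these data known, and the STAT and IRF motifs after the values were seen. Replicate numbers did not pair the arrays, with correlations of deviations of -0.132 to 0.0434 for 9 same-numbered pairs and -0.125 to 0.117 for 18 others. Alternatives changed the offset, the filter, the scaling, the choice of probe set, the variance trend, the arrays in the fit, the replicate block and each array in turn. The deposited report of array quality was not used, since its array names are in no label.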

Additional observations from a re-analysis of the deposited data

Results flagged for a closer look

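The effects of RAH-6 and of RAH-2 against DA5-3 differed from each other by the limma test of RAH-6 against RAH-2 in 8 of the 46 genes, none of them by the size of a call. By the adjusted p alone 4 were higher and 4 lower in RAH-6, against 9.69% and 9.06% of all genes. The log2 difference was 0.668 for Psmb9, 0.208 for Psmd8, 0.184 for Psmb1 and 0.168 for Psmc3. It was -0.338 for Psmd10, -0.295 for Psmd3, -0.190 for Psmd5 and -0.146 for Psma2. Without RAH-2 replicate 2, whose fibroblast marker sum stood apart from its group, the Psmb9 difference was 0.83. With all 12 arrays in the fit 1 of the 46 genes was higher and 1 lower by the adjusted p between these lines, and with median centring 1 was higher and 5 lower. With no variance trend 2 were higher and 2 lower, and leaving out 1 array gave 2 to 5 higher and 1 to 4 lower.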

How the results depend on the processing

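Counts of called genes among the 46 kept within 1.5 times their value in all alternatives run, apart from the genes lower than DA5-3. These were 1 in place of 2 for RahES, RAH-6 and RAH-2 with an offset of 64, with a filter at 200 (45 genes measured) and, in an alternative chosen after seeing the data, with 3 arrays taken out at once (RAH-2 replicate 2, DA5-3 replicate 1, round sperm replicate 1) (45 measured), Psmb8 being the gene lost or no longer measured. The fits with a replicate block gave the same counts, such as 2 lower in RahES against DA5-3 and 18 higher in RahES against round sperm cells, and changed no call among them, while by the adjusted p alone 4 were higher and 2 lower in RAH-6 against RAH-2. Leaving out 1 array gave 18 to 21 higher and 6 to 7 lower in RahES against round sperm cells, and 22 to 23 and 6 to 7 in DA5-3. Without round sperm replicate 3, Psmb9, Psmd1 (1.03), Psmd9 and Psmg1 were called in addition in RahES and Psmd13 was not. Medians moved by more than the spread between replicates (0.0251) in several settings. Against DA5-3, the median was -0.081 in RahES with median centring and -0.085 with quantile normalization, -0.061 in RAH-6 with quantile normalization, and -0.048 and -0.10 in RAH-2 with these scalings. Leaving out 1 array gave -0.16 to -0.12 in RAH-2. Between RAH-6 and RAH-2 it was -0.071 with median centring, where higher genes made up 64.6% of all calls, against 76.0% as reported, 65.4% with an offset of 64 (17 higher and 9 lower) and 87.9% without RAH-2 replicate 2 (109 and 15). Against round sperm cells, the median in RahES was 0.85 with an offset of 1, 0.67 with 64, 0.87 with a filter at 200, 0.48 with median centring, 0.84 with quantile normalization, 0.92 with the mean of probe sets, 0.92 without Psmc3ip and Psme3ip1, and 0.64 to 0.85 without 1 array. In DA5-3 it was 1.08 with a filter at 200, 0.64 with median centring, 0.90 with quantile normalization, 1.08 with the mean of probe sets, 0.90 without the 3 arrays, 1.08 without Psmc3ip and Psme3ip1, and 0.92 to 1.02 without 1 array. Of the single genes past the adjusted p as reported, these changed sign: Psme4 in RAH-6 against DA5-3 (0.046, mean of probe sets), Psmc4 (-0.036), Psmd7 (-0.033) and Nfe2l2 (-0.080) in RahES and Psmc1 (-0.16), Psmc5 (-0.10) and Psmd2 (-0.22) in DA5-3 against round sperm cells with median centring, and Psmc2 (0.10) in DA5-3 with quantile normalization. Over these genes 5348 values stayed on their side of the threshold, 31 gained and 44 lost a call and 8 changed sign, and the cause was not tested. Signals near 100 limit Psmb8 and Psmb9.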
